A study of Mus musculus with 8 samples.

Results

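Sodium and HCN channel subunits were examined in brain cortexes of high fat diet fed and normal mice, as 7 genes: Scn1a, Scn3a and Scn8a, which encode pore-forming sodium channel subunits, Scn2b, Scn3b and Scn4b, which encode beta subunits, and Hcn2, which encodes a hyperpolarization-activated channel. They were taken by gene name from an expression table of 13996 genes. All 7 lay within the study's filter on low expression, which kept 13982 genes.

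The study asked how a high fat diet changes the transcriptome of the cortex. Male C57BL/6 mice were obtained at an age of 8 weeks and kept for 8 weeks on a conventional diet (4 normal mice) or on a diet with 60% fat by weight (4 high fat diet mice, labelled HFD in the plots), so that both groups were 16 weeks old at the end. Each mouse gave 1 library of rRNA-depleted total RNA, sequenced from both ends, and the labels name no other treatment or allele. Values are FPKM, which scales fragments by transcript length and by mapped reads, so levels of different genes can be compared.

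Voltage-gated sodium channels open on depolarization and carry the rising phase of the action potential. Each has a single large pore-forming subunit, and beta subunits with a single membrane span and an immunoglobulin-like domain adjust its gating and place it in the membrane. HCN channels instead open on hyperpolarization, are gated by cyclic nucleotides and carry the Ih current that sets resting potential and rhythm in neurons.

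Scn4b showed the largest difference among the 7 genes. Its mean was 36.8 ± 8.89 FPKM in normal mice and 9.3 ± 3.80 FPKM in high fat diet mice (SD, n = 4 each). Scn1a and Scn2b decreased by smaller amounts, Scn8a increased, and Scn3a, Scn3b and Hcn2 did not pass the test. Thus 3 of the 7 genes were lower at an adjusted p below 0.05 (limma on log2(FPKM + 0.1), Benjamini-Hochberg adjustment over 13982 genes), where 15.3% of all genes tested were lower. The single higher member stood against 17.7% of all genes tested. With a change of more than 50% required as well, 1 member was lower (Scn4b), against 2.90% of all genes. The median log2 fold change was -0.0052 over the 7 genes and 0.0031 over all genes tested. The group holds only 7 genes, so these counts are a description of its members.

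**Figure D1:**
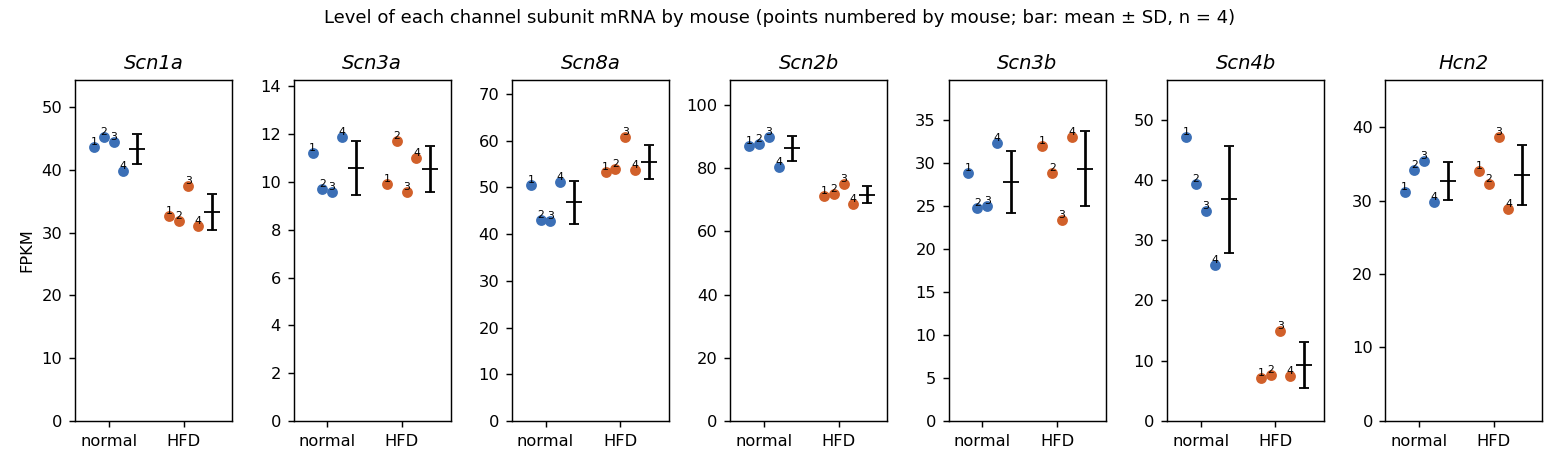
FPKM (vertical axes, starting at 0) of the 7 genes in each of the 4 normal and 4 high fat diet mice, with numbers naming mice and bars showing mean ± SD. Scn4b ranged from 25.9 to 47.2 in normal mice and from 7.2 to 15.0 on the high fat diet, while the values of Scn3a, Scn3b and Hcn2 overlapped between diets.

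The libraries also differed in markers of brain regions and cell types. Of the striatum list, 12 of 12 genes were lower, with a summed level of 286.2 to 508.8 FPKM in normal mice and 105.4 to 123.3 in high fat diet mice. Of the cerebellum list, 4 of 6 tested genes were lower, with sums of 21.8 to 346.9 against 16.1 to 18.9 FPKM, and Gabra6 (not tested) was listed at 0.0 in high fat diet mouse 1. In the thalamus list 3 of 7 were lower (42.4 to 122.7 against 38.8 to 43.0 FPKM), and in the oligodendrocyte list 8 of 8 were lower (2202.2 to 3613.6 against 1515.6 to 2096.5 FPKM). Markers of cortical projection neurons were higher for 7 of 9 genes (434.0 to 621.5 against 675.5 to 847.0 FPKM). Of 10 interneuron genes 4 were lower and 2 higher (578.0 to 604.4 against 499.8 to 580.3 FPKM). Oligodendrocyte precursors had 1 gene lower and 1 higher of 4 (33.4 to 35.2 against 29.6 to 31.2 FPKM), and astrocytes 2 lower and 1 higher of 6 (689.1 to 713.6 against 682.4 to 724.3 FPKM). By limma 0 of 5 microglia genes (101.5 to 122.3 against 107.2 to 118.2 FPKM) and 0 of 4 immature neuron genes (55.5 to 62.3 against 46.2 to 64.0 FPKM) passed, with 1 and 0 at an unadjusted p below 0.05. In such bulk samples, differing tissue content of the dissected pieces, fewer cells of a type and less RNA per cell cannot be told apart.

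Scn1a encodes Nav1.1, a pore-forming subunit that is prominent in fast-spiking parvalbumin interneurons. The gene lies on chromosome 2 (GRCm38, 66270778 to 66440840, minus strand). Its levels were 43.7, 45.3, 44.4 and 39.8 FPKM in normal mice 1 to 4. In high fat diet mice 1 to 4 they were 32.6, 31.8, 37.4 and 31.1 FPKM. Every high fat diet mouse was below every normal mouse. Scn1a decreased by 23.3% in mean FPKM, a log2 fold change of -0.38 (SE 0.067, 95% interval -0.53 to -0.23, adjusted p = 0.00327 from limma). An exact two-sided permutation test of the same values gave p = 0.0286, the smallest that 70 assignments of 4 and 4 mice allow. Of 10 interneuron genes 4 were lower (Gad1, Gad2, Slc32a1 and Pvalb), 2 higher (Lhx6 and Vip) and 4 did not pass (Sst, Npy, Syt2 and Cox6a2). Their summed levels were 578.0 to 604.4 FPKM on the normal diet and 499.8 to 580.3 FPKM on the high fat diet. Pvalb was at 50.1, 140.3, 145.8 and 60.5 FPKM in normal mice 1 to 4. Its highest values were those of normal mice 2 and 3, which also had the highest sums of cerebellum markers (256.5 and 346.9 FPKM). In high fat diet mice 1 to 4 it was at 41.3, 41.1, 55.6 and 33.4 FPKM. Among normal mice the interneuron sum was highest in mouse 4 (604.4 FPKM), where Scn1a was lowest. The oligodendrocyte list summed to 2969.6, 3613.6, 3262.2 and 2202.2 FPKM in normal mice 1 to 4, in the order of Scn1a. In high fat diet mice Scn1a and the sums of both lists were highest in mouse 3. The part of interneurons or oligodendrocytes in the Scn1a difference was not tested.

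Scn1a has close relatives on the same chromosome, so shared stretches were searched in 1 annotated transcript per gene, that with the longest coding sequence. Other annotated transcripts were not compared, and the shares below are of the windows of the relatives, not of Scn1a. A read inside a window that 2 genes share cannot be assigned by its own sequence. Of the windows of 100 bases in Scn2a (named Scn2a1 in the table), 89 of 8836 (1.01%) also occur in Scn1a, and of those in Scn3a 52 of 9461 (0.55%). In these transcripts no window of 100 bases was shared between Scn8a and Scn1a, Scn2a or Scn3a. Scn2a1 itself, the most abundant pore-forming gene, had 89.42 ± 5.64 FPKM in normal and 96.38 ± 4.17 FPKM in high fat diet mice (SD, n = 4 each) and did not pass the test (0.11 on the log2 scale, adjusted p = 0.156 from limma).

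Scn3a encodes Nav1.3, the pore-forming subunit best known from the embryonic brain, and lies 53.1 kb from Scn2a on the opposite strand (chromosome 2, 65457118 to 65567627, minus strand). It had the lowest level of the pore-forming genes. Normal mice had 11.2, 9.7, 9.6 and 11.9 FPKM. High fat diet mice had 9.9, 11.7, 9.6 and 11.0 FPKM. The diets overlapped fully, and the log2 fold change was -0.0052 (SE 0.091, adjusted p = 0.97 from limma). Its 95% interval, -0.21 to 0.20, did not reach the log2 fold change of Scn1a.

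Scn8a encodes Nav1.6, the main sodium channel of the distal axon initial segment and of nodes of Ranvier, on chromosome 15 (100869858 to 101045938, plus strand). Normal mice had 50.5, 43.0, 42.8 and 51.1 FPKM. The levels were 53.4, 53.9, 60.9 and 53.8 FPKM on the high fat diet. The highest normal mouse was 51.1 and the lowest high fat diet mouse 53.4, so the diets were separated by a small gap. Scn8a increased by 18.5% in mean FPKM, with a log2 fold change of 0.25 (SE 0.074, 95% interval 0.08 to 0.41, adjusted p = 0.0305 from limma).

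The normal values of Scn8a fell into 2 levels. The lower pair, mice 2 and 3, had the highest sums of cerebellum markers, 256.5 and 346.9 FPKM. Mice 1 and 4 had 21.8 and 77.4 FPKM. The lower pair also had the highest thalamus and oligodendrocyte sums. Its projection neuron sums were the lowest, 445.7 and 434.0 FPKM against 605.2 and 621.5 FPKM in mice 1 and 4. On the high fat diet, Scn8a and the projection neuron sum (847.0 FPKM) were both highest in mouse 3. Without normal mice 2 and 3, the log2 fold change of Scn8a was 0.13 and its adjusted p 0.195 from limma. With the cerebellum list as a covariate it was 0.02 (adjusted p = 0.939 from limma). The call was lost in 9 of 18 alternatives, among them the fit with the replicate number as a block (adjusted p = 0.0742 from limma). It was also lost without any 1 of normal mouse 2, normal mouse 3, high fat diet mouse 1, 2 or 3, with adjusted p of 0.0825, 0.0743, 0.0501, 0.0571 and 0.0752 from limma. Over the 18 alternatives the adjusted p lay between 0.0184 and 0.939. The part of cerebellar RNA in the Scn8a difference was not tested beyond these fits, and that of the other lists was not tested.

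**Figure D2:**
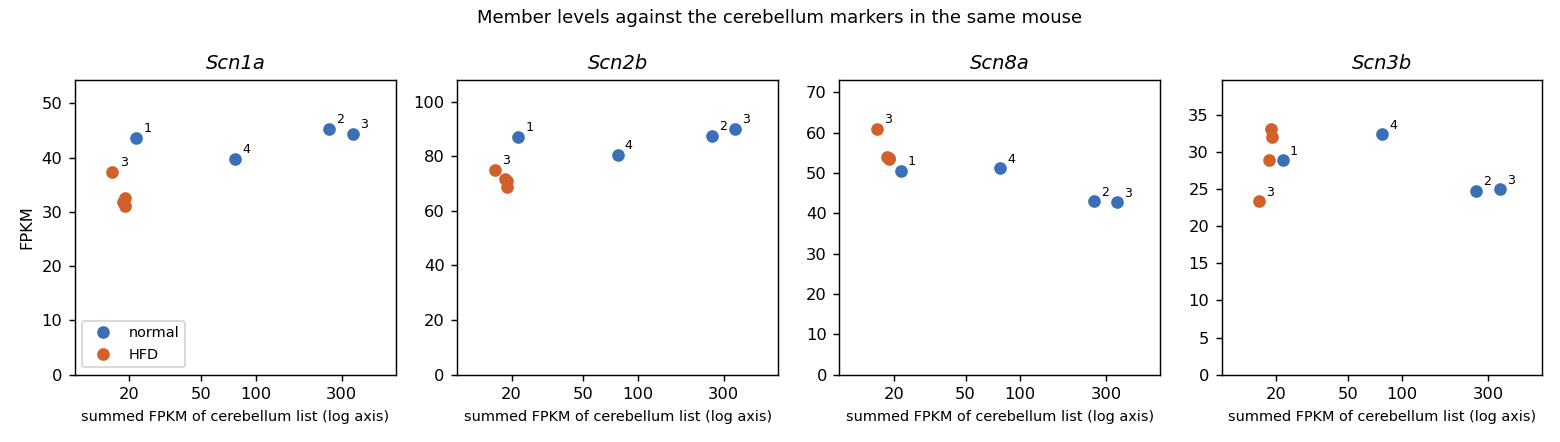
FPKM of channel genes (vertical axes) against the summed FPKM of the cerebellum list (horizontal axis, log scale), 1 point per mouse, normal (blue) and high fat diet (HFD, orange), with numbers naming the normal mice and high fat diet mouse 3. Normal mice 2 and 3, at sums of 256.5 and 346.9, had the lowest Scn8a of all 8 mice (43.0 and 42.8), and the high fat diet mice all lay at sums between 16.1 and 18.9.

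Scn1a and Scn8a thus differed in opposite directions, but the Scn8a call was lost in 9 of 18 alternatives. Within each mouse, a ratio of Scn1a to Scn8a does not depend on scaling between libraries. This ratio ranged from 0.779 to 1.053 in normal mice and from 0.578 to 0.614 on the high fat diet. Neither gene overlapped between diets, so the ranges of the ratio could not overlap either. The highest ratios, 1.053 and 1.037, were those of normal mice 2 and 3. As a share of the summed FPKM of Scn1a, Scn2a1, Scn3a and Scn8a, Scn1a was 22.84 ± 2.2% in normal and 16.98 ± 1.28% in high fat diet mice. The share of Scn8a was 24.59 ± 1.22% and 28.36 ± 1.43% (SD, n = 4 each), also without overlap. Scn2a1 kept the largest share, 47.0% and 49.27%, and its ranges overlapped. The sum of the 4 pore-forming genes was 190.2 ± 9.54 FPKM in normal and 195.6 ± 4.51 FPKM in high fat diet mice, with overlap.

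**Figure D3:**
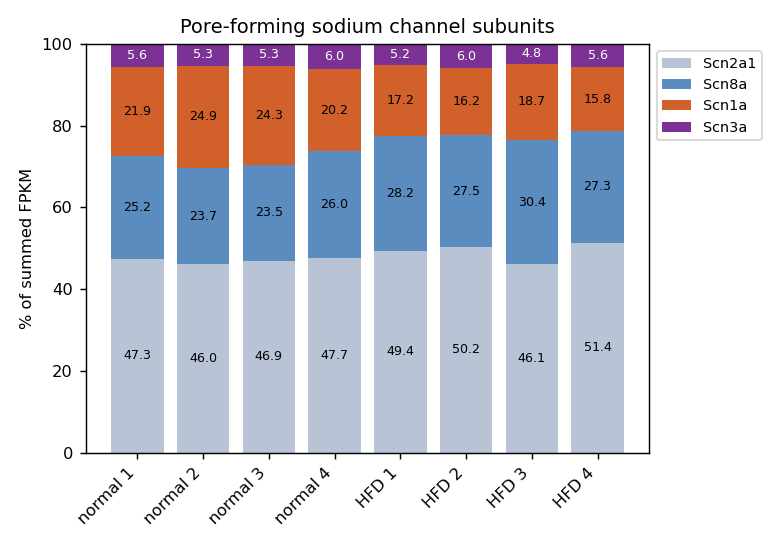
Percent of the summed FPKM (vertical axis) taken by each of the 4 pore-forming sodium channel genes in every mouse (horizontal axis). The Scn1a share ranged from 20.23% to 24.94% in normal mice and from 15.77% to 18.68% on the high fat diet, and the Scn8a share from 23.46% to 25.98% and from 27.28% to 30.42%.

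Scn4b encodes the beta4 subunit, whose intracellular tail is known as the blocking particle of resurgent sodium current, and which is abundant in striatal medium spiny neurons and Purkinje cells. The gene lies on chromosome 9 (45138395 to 45154152, plus strand), in tandem with Scn2b. Normal mice had 47.2, 39.3, 34.8 and 25.9 FPKM. High fat diet mice had 7.2, 7.6, 15.0 and 7.4 FPKM. The lowest normal mouse was above the highest high fat diet mouse, and high fat diet mouse 3 was well above the other 3 of its diet. Scn4b decreased by 74.7% in mean FPKM, so that normal mice were 3.96-fold higher. The log2 fold change was -2.01 (SE 0.25, 95% interval -2.57 to -1.46, adjusted p = 0.00090 from limma), rank 35 of 13982 genes by size. The call held in all 18 alternatives, with log2 fold changes between -2.27 and -1.88 and adjusted p of at most 0.0381 from limma.

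The profile of Scn4b over the 8 mice was closest to those of genes of the striatum list. Among 6699 protein-coding genes with a mean of at least 10 FPKM, the nearest by root mean square difference of centred log2(FPKM + 0.1) were Ppp1r1b (0.256), Rgs9 (0.262) and Tac1 (0.332), against a spread of Scn4b around its own mean of 1.076. Ppp1r1b encodes DARPP-32, a phosphatase inhibitor of medium spiny neurons, Rgs9 a regulator of G protein signaling and Tac1 the precursor of substance P. Ppp1r1b was at 115.5, 94.1, 88.3 and 62.8 FPKM in normal mice and at 22.6, 26.1, 33.2 and 27.6 FPKM in high fat diet mice. In both diets the mouse with the highest Scn4b also had the highest Ppp1r1b, and in normal mice the order of the 4 values was the same. Ppp1r1b was picked as the nearest profile over these same mice, so this match is partly built in. Of the other nearest genes, Rgs9 was highest in high fat diet mouse 3 (5.8 FPKM) and Tac1 in mouse 2 (8.1 FPKM). The striatum list, which includes Ppp1r1b, Rgs9 and Tac1, summed to 508.8, 417.4, 396.1 and 286.2 FPKM in normal mice 1 to 4, again in the order of Scn4b. In high fat diet mice it summed to 105.4, 108.4, 123.3 and 107.3 FPKM, highest in mouse 3, which was also highest for Scn4b. Adora2a and Drd2, defining markers of striatal neurons, were detected at 0.3 to 0.7 FPKM in high fat diet mice. The part of striatal tissue in the Scn4b difference was not tested.

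**Figure D4:**
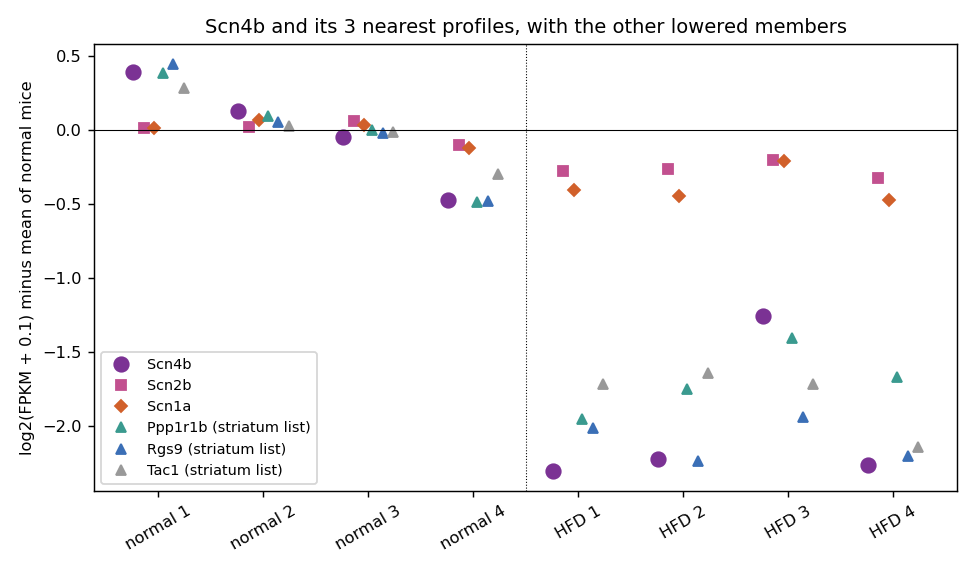
Log2(FPKM + 0.1) minus the mean of the normal mice (vertical axis) for Scn4b, Scn2b and Scn1a and for Ppp1r1b, Rgs9 and Tac1 of the striatum list, in each mouse (horizontal axis). Scn4b, Ppp1r1b, Rgs9 and Tac1 lay far below 0 in all 4 high fat diet mice, while Scn2b and Scn1a lay slightly below it.

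Scn2b encodes the beta2 subunit, which is joined to the pore-forming subunit by a disulfide bond, and had the highest level of the 7 genes. It lies on chromosome 9 (45117782 to 45130070, plus strand), 8.3 kb ahead of Scn4b on the same strand with 0 coding genes between. Normal mice had 87.1, 87.5, 90.0 and 80.5 FPKM. High fat diet mice had 71.1, 71.8, 75.0 and 68.7 FPKM. No value of one diet reached the other. Scn2b decreased to 0.830 of the normal mean FPKM, with a log2 fold change of -0.27 (SE 0.048, 95% interval -0.38 to -0.16, adjusted p = 0.00364 from limma). The neighbours Scn2b and Scn4b were thus both lower, by very different amounts, and the ratio of Scn4b to Scn2b was 0.425 ± 0.0938 in normal and 0.129 ± 0.0476 in high fat diet mice (SD, n = 4 each). With the cerebellum list as a covariate, Scn1a and Scn2b had log2 fold changes of -0.34 and -0.23 and no longer passed (adjusted p = 0.143 and 0.160 from limma). Their calls held in the other 17 alternatives, in which the adjusted p was at most 0.0274.

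The sequences just ahead of the annotated starts of the 3 lowered genes are shown, because Scn2b and Scn4b share a locus and Scn1a was lowered with them. They come from RefSeq windows on GRCm38.p6 of 250 bases before to 50 after a start, which matched 5 of the 7 genes. Only the bases ahead of the GENCODE start are printed, and capitals mark the letters CCAAT. Their positions are chr2:66440841-66441087 (minus strand), chr9:45117626-45117781 and chr9:45138374-45138394 (plus strand).
Scn1a: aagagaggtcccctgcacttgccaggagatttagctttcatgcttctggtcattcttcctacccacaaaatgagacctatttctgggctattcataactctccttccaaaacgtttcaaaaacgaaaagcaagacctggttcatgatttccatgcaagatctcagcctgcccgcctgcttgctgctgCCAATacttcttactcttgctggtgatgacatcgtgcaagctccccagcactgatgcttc
Scn2b: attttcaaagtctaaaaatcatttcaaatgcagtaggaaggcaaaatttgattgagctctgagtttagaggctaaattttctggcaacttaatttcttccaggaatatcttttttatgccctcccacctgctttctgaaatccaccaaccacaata
Scn4b: gtcgtccgcagcgggcaagcc
The whole windows had a GC content of 47.3% for Scn1a, 38.3% for Scn2b and 66.3% for Scn4b, against a median of 52.7% over 32851 windows, so the neighbours differed widely. The letters of 5 motifs were searched on both strands. CCAAT was found in the windows of Scn1a and Scn4b and in 37.4% of all windows. GGGCGG (GC box, 35.7% of all windows) was found in that of Hcn2. TATAAA (13.6%), TGACGTCA (1.8%) and CACGTG (7.2%) were found in no window of the 5 genes. No motif was common to the 3 lowered genes.

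Scn3b encodes the beta3 subunit, which associates with the pore without a disulfide bond, on chromosome 9 (40269217 to 40291618, plus strand). Normal mice had 28.9, 24.8, 25.0 and 32.4 FPKM. The levels were 32.0, 28.9, 23.4 and 33.1 FPKM on the high fat diet. The lowest value of all belonged to high fat diet mouse 3, and the diets overlapped. The log2 fold change was 0.08 (SE 0.12, 95% interval -0.19 to 0.35, adjusted p = 0.654 from limma), and its sign turned without normal mice 2 and 3 (-0.07).

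Hcn2 encodes the HCN channel that responds strongly to cyclic AMP and is widespread in cortex and thalamus, on chromosome 10 (79716634 to 79736108, plus strand). Normal mice had 31.2, 34.2, 35.4 and 29.8 FPKM. On the high fat diet the values were 34.0, 32.3, 38.7 and 28.9 FPKM. The diets overlapped throughout, with the lowest and the highest value both in high fat diet mice. The log2 fold change was 0.03 (SE 0.09, 95% interval -0.17 to 0.23, adjusted p = 0.81 from limma). Exact two-sided permutation tests gave p = 0.9714 for Scn3a, 0.6857 for Scn3b and 0.7714 for Hcn2.

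Hcn3 (means of 2.35 FPKM in normal and 2.85 in high fat diet mice) and Hcn4 (1.4 and 0.85 FPKM), the pacemaker channel of thalamus and heart, were low and did not pass. Hcn4 was highest in normal mice 2 and 3, at 1.8 FPKM in each, and these mice also had the highest sums of thalamus markers, 122.7 and 106.9 FPKM. The same mice had the highest sums of cerebellum (256.5 and 346.9 FPKM) and oligodendrocyte markers (3613.6 and 3262.2 FPKM). The part of any of these tissues in the Hcn4 values was not tested.

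The order of levels shifted with the diet. In normal mice Scn2b (86.28 FPKM) led the 7 genes, followed by Scn8a (46.85), Scn1a (43.3), Scn4b (36.8), Hcn2 (32.65), Scn3b (27.77) and Scn3a (10.6). From Scn8a to Scn3b each gene overlapped with the next, so their order is not beyond the spread of the mice. In high fat diet mice Scn2b (71.65 FPKM) and Scn8a (55.5) stood apart from each other and from the rest. Hcn2 (33.48), Scn1a (33.23) and Scn3b (29.35) overlapped, and Scn3a (10.55) and Scn4b (9.3) were lowest and overlapped. Scn4b thus stood between Scn1a and Hcn2 in normal mice and last in high fat diet mice.

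Counted by overlap instead of by model, 3 members had every high fat diet mouse below every normal mouse, where 14.7% of all genes did. Scn8a alone had every such mouse above, where 17.2% of all genes did, and 3 overlapped. These are the same genes that passed the adjusted threshold.

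**Figure D5:**
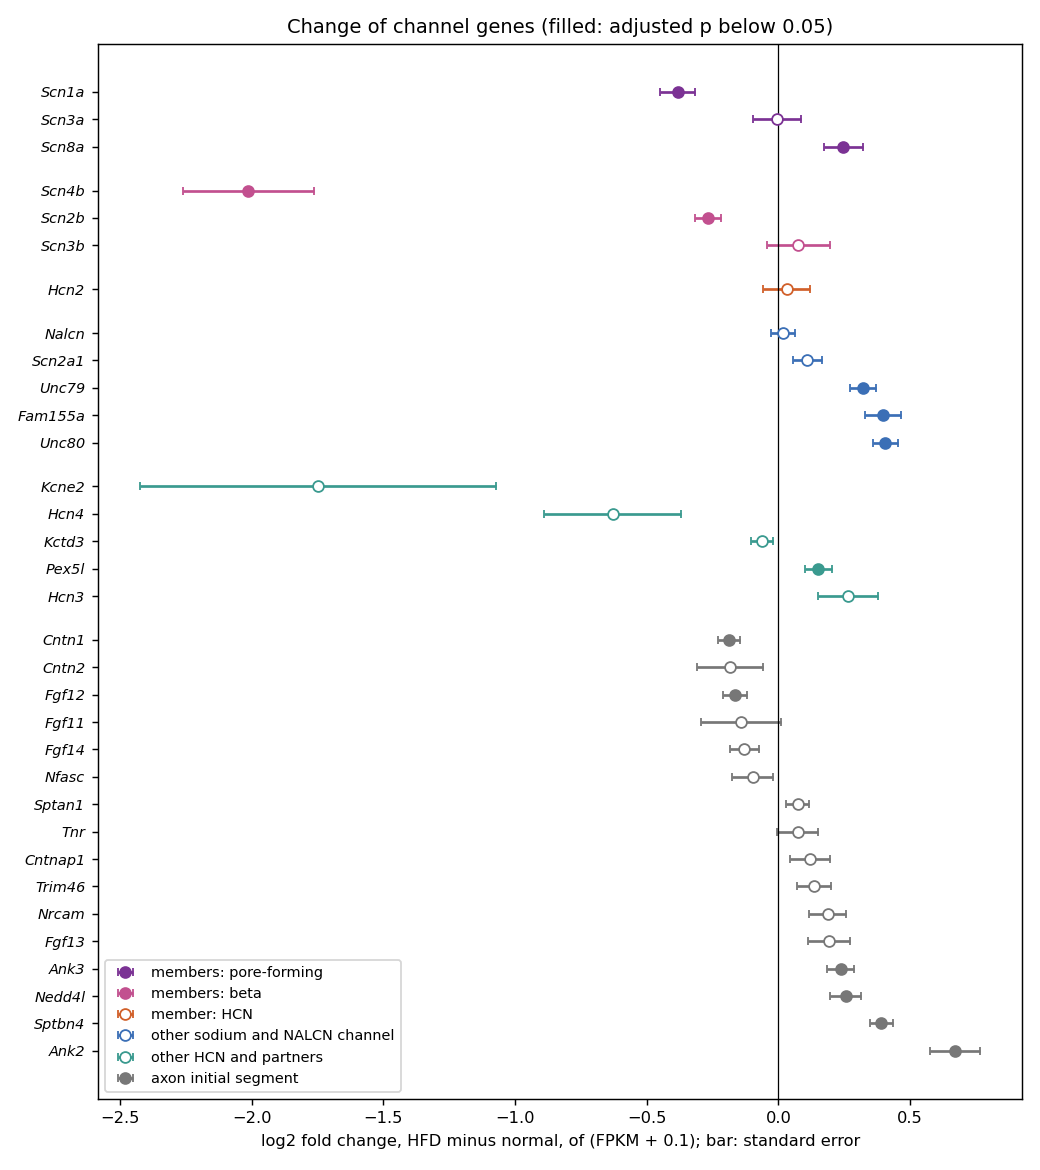
Log2 fold change between diets on the log2(FPKM + 0.1) scale (horizontal axis, below 0 for lower on the high fat diet) with bars of 1 standard error, for the 7 genes and for other channel and axon initial segment genes. Filled points passed an adjusted p below 0.05. Scn4b stood at -2.01, Scn1a and Scn2b at -0.38 and -0.27 and Scn8a at 0.25.

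The profiles nearest to the other genes were much closer than those nearest to Scn4b, and belonged to genes of varied function. Among the closest over the 8 mice were Ado (root mean square difference 0.030), Serinc5 and Ubl3 for Scn1a, Sem1 (0.027) and Raly for Scn2b, and Med24 (0.026), Fam234b and Fbxo31 for Scn8a. For Scn3a they included Ccdc88a (0.044) and Scamp1, for Scn3b Bnip1 (0.061), Nsg2 and Rgs12, and for Hcn2 Pgp (0.048), Srebf1 and Cdyl. Genes of small variation have small differences by construction, so these values are a description.

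High fat diet mouse 3 had the highest Scn1a, Scn8a, Scn2b, Scn4b and Hcn2 of its diet and the lowest Scn3a and Scn3b. It also had the highest sums of oligodendrocyte (2096.5 FPKM), cortical projection neuron (847.0 FPKM) and striatum markers (123.3 FPKM) and the lowest sum of immature neuron markers (46.2 FPKM) of the high fat diet mice. Without this mouse the log2 fold change of Scn4b was -2.27 (SE 0.17, adjusted p = 0.00041 from limma). Normal mice 2 and 3, in turn, had lower Scn8a, Scn3a, Scn3b and Scn2a1 and higher Scn1a, Scn2b and Hcn2 than normal mice 1 and 4. The part of these mice in the 3 genes that overlapped between diets was not tested beyond leaving them out.

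Genes around the sodium channel were read from 3 lists with 26 tested genes, of which 10 passed, where 33.1% of all genes tested did. The count is thus near the background. Adjusted p are from limma, as above. With the cerebellum list as a covariate 2 passed, Unc80 and Sptbn4. In that fit the log2 fold changes of Ank3, Nedd4l and Fam155a were 0.11, 0.10 and 0.18, over 1.5 times smaller than those given here, while Ank2 (0.63) and Cntn1 (-0.18) differed little in size but did not pass. Among 5 other sodium channel genes and NALCN channel genes, 3 were higher and 2 did not pass, where 17.7% of all genes tested were higher. With only 5 genes, this count is a description. Unc80, which scaffolds the sodium leak channel NALCN, was at 44.2, 43.9, 45.4 and 48.6 FPKM in normal and at 58.4, 60.5, 63.5 and 59.0 FPKM in high fat diet mice, with no overlap (log2 change of 0.41, adjusted p = 0.00082). Unc79, its partner, rose from 15.07 to 18.85 FPKM (0.32 on the log2 scale, adjusted p = 0.00185), and Fam155a, another subunit of the complex, from 28.23 to 37.1 FPKM (0.40, adjusted p = 0.00323). Nalcn, the pore itself, was at 20.18 ± 0.574 and 20.42 ± 0.834 FPKM (SD, n = 4 each) and did not pass. The median log2 fold change of these 5 genes was 0.32.

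Among 5 other HCN genes and partners, Pex5l was higher and 4 did not pass, where 17.7% of all genes tested were higher. Pex5l, which encodes the HCN trafficking protein TRIP8b, rose from 95.48 to 106 FPKM (0.15 on the log2 scale, adjusted p = 0.0464), but this call was lost in 11 of 18 alternatives, which included leaving out normal mouse 2 or 3 or any single high fat diet mouse (adjusted p from 0.0691 to 0.107). Kcne2 was at 3.3 FPKM in high fat diet mouse 4 and at 0.2 to 0.4 FPKM in the other 3 mice of its diet. It did not pass (adjusted p = 0.0734).

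Among 16 genes of the axon initial segment and of sodium channel partners, 4 were higher, 2 were lower and 10 did not pass, with a median log2 fold change of 0.10. These counts too are near the shares over all genes, 17.7% higher and 15.3% lower. Sptbn4, the betaIV spectrin of the initial segment, rose from 33.75 ± 0.545 to 44.32 ± 2.11 FPKM (SD, n = 4 each; 0.39 on the log2 scale, adjusted p = 0.00077). Ank3, encoding ankyrin-G that anchors Nav1.6 there, rose from 59.25 to 69.75 FPKM (0.24, adjusted p = 0.00816). Ank2, encoding ankyrin-B, rose from 16.78 to 26.85 FPKM (0.67, adjusted p = 0.00141), and was the only gene of the 26 that both passed and differed by more than 50%. Nedd4l, a ubiquitin ligase that removes sodium channels from the membrane, rose from 29.27 to 34.95 FPKM (0.26, adjusted p = 0.00988), a call lost without normal mice 2 and 3 (0.19, adjusted p = 0.0544) as well as with the covariate. Cntn1, an adhesion molecule, fell from 154.6 to 135.9 FPKM (-0.19, adjusted p = 0.0091). Fgf12, an intracellular modulator of sodium channel inactivation, fell from 56.02 to 49.95 FPKM (-0.16, adjusted p = 0.0223), a call lost in 5 of 18 alternatives, which included leaving out normal mouse 2 or high fat diet mouse 1 or 4 (adjusted p = 0.0610, 0.0625 and 0.0508).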

How the data were processed

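Libraries from the cortex of 4 normal and 4 high fat diet mice were used, grouped by the labels. Per the study's methods, the authors' FPKM came from reads checked by FastQC, trimmed by Trimmomatic, placed on mm10 by STAR and quantified by Cuffnorm against GENCODE M17 (GRCm38.p6). The libraries were stranded. Tool versions and any use of strand in the quantification were not given in the sources used here. Scn1a, Scn2b, Scn3a and Scn3b have annotated genes on the other strand. The deposited FPKM are rounded to 0.1 and sum to between 562431 and 639142 per mouse. They hold no read counts, so the depth behind a value is unknown. The labels name no batches.

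From these, log2(FPKM + 0.1) was compared with limma 3.58.1 in R 4.3.3 (two-sided, variance trend, Benjamini-Hochberg over the 13982 genes that average 1 FPKM or more and hold no 0). Fold changes are on this scale, which understates those of low genes. Shares, profiles and exact permutation tests were computed in Python 3.11.15 (pandas 2.3.3, numpy 2.4.6, scipy 1.17.1), and plots used matplotlib 3.10.9. The fit was tested on simulated data with 4 mice per diet. It recovered 58 of 100 changes of 1.3-fold and 97 of 100 changes of 2-fold, and called 7 unchanged genes. Changes of 1.3-fold or less can thus be missed. Far fewer genes changed in the simulation than were called in the real data. Gene positions and transcripts came from GENCODE M21, which is later than M17. Members, lists and tests were chosen with earlier results of these data known. Named genes are the members, the 3 channel lists and, per member, the 3 nearest profiles. The results of some of these genes, and the shares of beta and HCN genes, are not reported here, and the list counts leave those genes out. Marker lists covered striatum, cerebellum, thalamus, projection neurons, interneurons, immature neurons, oligodendrocytes and their precursors, astrocytes and microglia. Alternatives were other added constants, filters and scalings, no variance trend, a replicate block, a cerebellum covariate, each mouse left out, and, added after seeing the data, normal mice 2 and 3 left out together.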

Additional observations from a re-analysis of the deposited data

Results flagged for a closer look

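In high fat diet mice, Scn8a was at 60.9 FPKM in mouse 3 against 53.4 to 53.9 FPKM in the other 3 mice, a gap of 0.933 of the range of the group. Scn4b was at 15.0 FPKM in the same mouse against 7.2 to 7.6 FPKM, a gap of 0.949 of the range. Both gaps exceed the 95% critical value of Dixon's test for 4 samples. Of the 14 groups examined (7 genes in each diet), 2 stood out in this way, where chance flags about 1 in 20 groups.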

How the results depend on the processing

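Of 18 alternatives, Scn4b passed in all, Scn1a and Scn2b in 17 and Scn8a in 9. The number of members higher, 1 as reported, was 0 without a variance trend, with the replicate block, with the cerebellum covariate and without normal mice 2 and 3 (chosen after seeing the data), and 0 to 1 when each mouse was left out. With the covariate the number lower was 1 instead of 3 and that of other channel genes 2 instead of 10. In that fit calls over all genes fell from 4626 to 405 and the cause was not tested. The cerebellum sums did not overlap between diets (21.8 to 346.9 FPKM in normal and 16.1 to 18.9 FPKM in high fat diet mice). That fit thus cannot fully tell diet and covariate apart. The standard error of Scn2b rose from 0.048 to 0.085 and that of Scn4b from 0.249 to 0.450. The standard error of Scn1a rose from 0.067 to 0.121, and the log2 fold change of Scn8a was 0.017 instead of 0.247. There Scn3b was -0.139 and Pex5l -0.004. Scn3b was -0.073 without normal mice 2 and 3. With single mice left out, the log2 fold change lay between -0.056 and 0.052 for Scn3a and between -0.041 and 0.099 for Hcn2, on both sides of 0. The fit with the replicate block called 3390 genes and lost Scn8a (0.247, adjusted p = 0.0742 from limma), Pex5l (0.152) and Fgf12 (-0.164). Deviations of same-numbered mice correlated at -0.038, -0.028, -0.109 and -0.072, so the numbers give no pairing. Rounding to 0.1 limits genes near 1 FPKM, such as Hcn4.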
